A study of Mus musculus with 12 samples.

Results

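The immediate early genes described here are 10 genes that were chosen by name as members of this class: *Fos*, *Fosb*, *Jun*, *Junb*, *Egr1*, *Ier2*, *Ier3*, *Dusp1*, *Atf3* and *Klf6*. They are 10 of the 46517 genes counted, and all 10 were among the 15673 genes that passed the filter on low values. RNA with poly(A) tails was sequenced from 12 samples of a mouse embryonic stem cell (ESC) line of C57BL/6 background that carries EGFP as a reporter for *Eomes*. The samples fall into 4 groups of 3, namely wild-type (WT) and *Meteor* knockout (KO) cells, each at day 0 and at day 3 of cardiac differentiation. *Meteor* is an enhancer upstream of *Eomes* that was deleted with a CRISPR-Cas9 nickase in the KO cells. Every sample carries the reporter. Day 0 cells grew undifferentiated on mouse embryonic fibroblast feeders. Cells of day 3 had been aggregated in hanging drops, without feeders, into embryoid bodies, in which germ layers begin to form. Day and culture therefore cannot be told apart. The KO cells were grown from picked single clones, and the labels do not say which clone gave which sample. The deletion and differences between clones therefore cannot be told apart in these samples.

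Immediate early genes are the first genes that a cell transcribes after a growth factor, stress or a change of medium reaches it. They need no new protein for this, because the factors that switch them on, such as SRF with its ternary complex partners and CREB, are already in place and are activated by ERK and other kinases. Their transcripts are short-lived, so their levels follow recent signalling and also handling of the cells. FOS, FOSB, JUN and JUNB pair to form the transcription factor AP-1, and ATF3 belongs to the same family of leucine zipper proteins. EGR1 and KLF6 are zinc finger transcription factors, DUSP1 is a phosphatase that switches off MAP kinases, IER2 is a nuclear protein, and IER3 is a short protein tied to cell survival.

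The gene counts of a sample summed to 17455927 at the lowest and 23910943 at the highest. CPM is the read count of a gene scaled to a common library size by TMM factors. *Platr11*, the annotated noncoding gene of the deleted locus, had 30 to 112 reads in WT and 0 or 1 in KO samples at day 0. At day 3 it had 11 to 53 reads in WT and 0 in all 3 KO samples. Markers of ESCs summed to 2822 to 4187 CPM at day 0, and those of the primitive streak and mesendoderm summed to 833.9 to 1715 CPM in WT and 75.04 to 150.2 CPM in KO at day 3. Fibroblast markers, which feeders express, summed to 82.1 to 334.4 CPM at day 0 and 40.0 to 81.5 CPM at day 3. Macrophage and blood markers summed to at most 22.5 CPM, and only *Cd68* of these 5 passed the filter. In such bulk samples fewer cells of a type and less RNA per cell cannot be told apart. Nothing in the labels says that samples of a group came from separate cultures, so p-values measure only the spread between these samples.

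Per length, the highest of the 10 in each of the 4 groups was *Ier2* (ENSMUSG00000053560), at 89.7 ± 17.1 CPM per kb of exon in WT and 90.0 ± 1.99 in KO at day 0 (SD, n = 3). *Fosb* (ENSMUSG00000003545) was lowest in each group, at 4.32 ± 1.46 CPM per kb in WT ESCs. In WT ESCs the order ran *Ier2*, *Klf6*, *Egr1*, *Junb*, *Fos*, *Jun*, *Dusp1*, *Atf3*, *Ier3*, *Fosb*. The samples of neighbours in that order overlapped except between *Egr1* and *Junb*, *Dusp1* and *Atf3*, and *Ier3* and *Fosb*. In WT at day 3 the order ran *Ier2*, *Klf6*, *Ier3*, *Jun*, *Dusp1*, *Junb*, *Egr1*, *Fos*, *Atf3*, *Fosb*, with gaps only between *Dusp1* and *Junb* and between *Atf3* and *Fosb*. *Ier3* had moved from the ninth place to the third, at 26.9 ± 21.7 CPM per kb, an SD nearly as large as its mean.

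**Figure D1:**
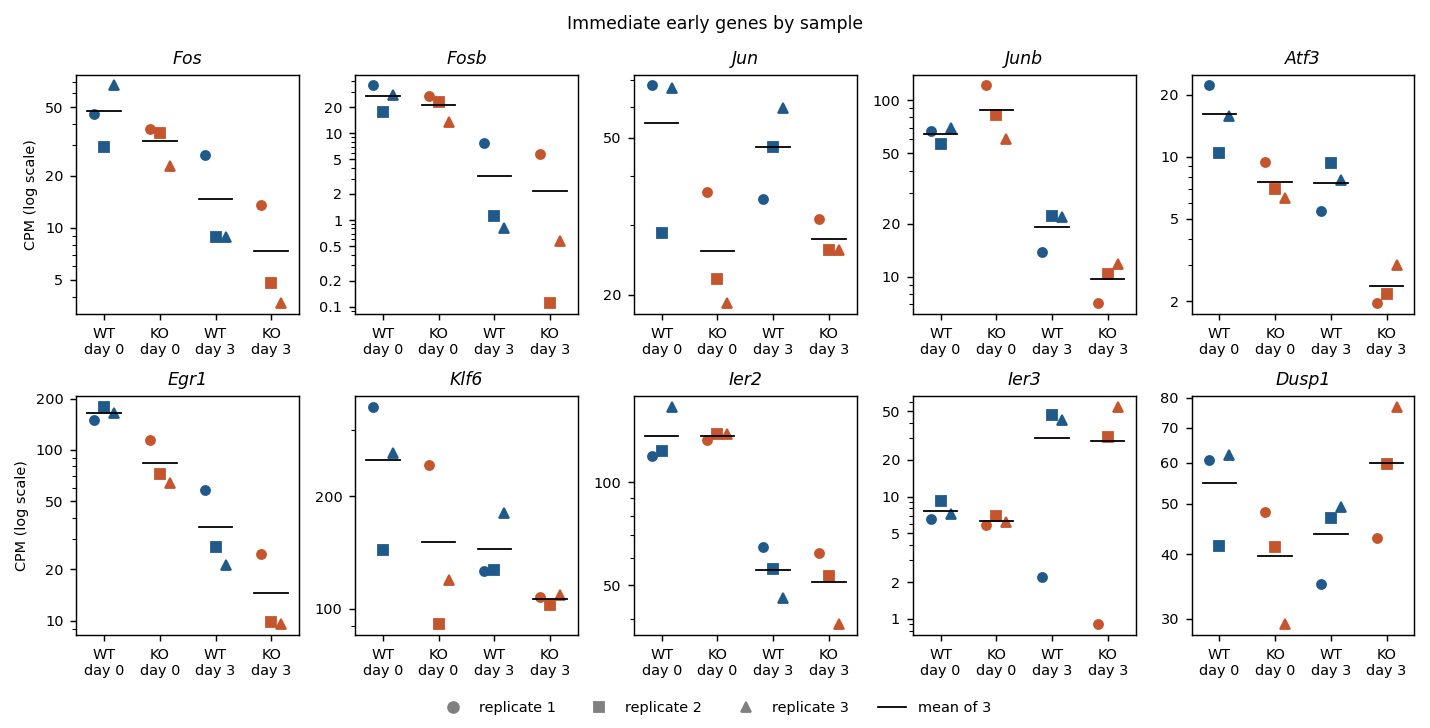
CPM (log scale) of the 10 genes in the 12 samples, with blue points for WT, orange points for KO, the point shape for the replicate number and a black bar for the mean of 3. *Fos*, *Fosb*, *Junb*, *Atf3*, *Egr1* and *Ier2* sit lower at day 3 than at day 0 in both genotypes, and replicate 1 of *Ier3* sits far below replicates 2 and 3 at day 3 in both.

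The AP-1 genes *Fos* and *Fosb* fell during differentiation in both genotypes, and their levels at day 3 differed several-fold between replicate numbers. *Fos* (ENSMUSG00000021250; GRCm38, chr12:85473890-85477273, plus strand) had 45.8, 29.4 and 66.8 CPM in replicates 1, 2 and 3 of WT and 37.5, 35.4 and 22.9 CPM in those of KO at day 0. At day 3 it had 26.4, 8.81 and 8.91 CPM in WT and 13.5, 4.78 and 3.66 CPM in KO. All day 3 samples lay below all day 0 samples of their genotype, and replicate 1 was the highest at day 3 in both. *Fosb* (chr7:19302696-19310051, minus strand) had 35.6, 17.5 and 27.9 CPM in WT and 26.8, 23.0 and 13.5 CPM in KO at day 0. Its day 3 values were 7.79, 1.11 and 0.81 CPM in WT and 5.80, 0.11 and 0.58 CPM in KO, where the lowest stands for 2 reads. The gap between replicate 1 and the others at day 3 was the same way round for *Fosb* as for *Fos*.

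The promoters of *Fos* and *Fosb* are shown because these genes moved together across the samples, and that of *Ier3* because it moved against them at day 3. The sequences are the 250 bases before the start site from RefSeq (GRCm38.p6), 5′ to 3′ on the gene's strand. Capitals mark TGACG, the core of the element that CREB and ATF factors bind, and TATAAA, on either strand. The *Fos* window is chr12:85473640-85473889 (plus strand), the *Fosb* window chr7:19310046-19310295 (minus strand) and the *Ier3* window chr17:35821463-35821712 (plus strand).
Fos: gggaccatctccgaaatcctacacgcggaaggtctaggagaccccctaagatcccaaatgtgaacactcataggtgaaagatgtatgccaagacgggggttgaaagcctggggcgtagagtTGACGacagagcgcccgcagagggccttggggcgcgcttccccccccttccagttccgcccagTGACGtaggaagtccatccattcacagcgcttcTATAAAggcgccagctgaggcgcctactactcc
Fosb: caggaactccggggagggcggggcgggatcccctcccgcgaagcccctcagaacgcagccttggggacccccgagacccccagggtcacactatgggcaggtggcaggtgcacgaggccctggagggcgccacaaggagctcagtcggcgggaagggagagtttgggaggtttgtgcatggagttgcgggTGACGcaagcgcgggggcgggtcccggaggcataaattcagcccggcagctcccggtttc
Ier3: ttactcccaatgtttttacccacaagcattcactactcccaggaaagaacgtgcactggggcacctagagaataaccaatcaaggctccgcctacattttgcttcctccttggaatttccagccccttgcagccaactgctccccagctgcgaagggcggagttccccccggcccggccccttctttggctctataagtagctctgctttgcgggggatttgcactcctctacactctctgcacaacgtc

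In the *Fos* window TGACG starts 129 and 66 bases before the start site and TATAAA 33 bases before it. The *Fosb* window holds TGACG once, 60 bases before the start, and the *Ier3* window holds neither motif. RefSeq gave a window for 8 of the 10 genes, all but *Egr1* and *Ier2*. TGACG was in 5 of these 8 (*Fos*, *Fosb*, *Junb*, *Dusp1* and *Atf3*), against 17.8% of the 32851 promoters of the same length. The whole palindrome TGACGTCA, which contains TGACG on both strands, was in *Dusp1* alone of the 8, 143 bases before its start, against 1.55% of all promoters. The AP-1 motif TGANTCA (6.75% of all promoters) and the CArG box that SRF binds (1.47%) were in none of the 8 windows. The other genes with TGACG varied with *Ier3* rather than with *Fos*. Over the 12 samples, the deviations of *Junb*, *Dusp1* and *Atf3* from their group means correlated with those of *Ier3* at 0.66, 0.65 and 0.44. With those of *Fos* they correlated at -0.35, -0.28 and -0.19. A match describes these letters only and says nothing of binding, and sites outside these windows were not searched.

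From day 0 to day 3, 6 of the 10 genes were called lower in WT and the same 6 in KO, while none was called higher. Of all tested genes, 56.2% were called in WT, 25.5% lower and 30.7% higher. In KO 56.6% were called, 27.2% lower and 29.4% higher. The 6 were *Fosb*, *Egr1*, *Fos*, *Junb*, *Ier2* and *Atf3*. The median log2 fold change over the 10 genes was -1.19 in WT and -1.55 in KO, beside 0.07 and 0.03 over all tested genes. Of 10 fibroblast markers tested, 4 fell in WT, and 7 fell and *Dcn* rose (1.89, adjusted p = 0.00327) in KO, and their part in these falls was not tested. In each of the 6, all day 3 samples lay below all day 0 samples in both genotypes, an order found in 25.9% of all tested genes in WT and 30.1% in KO. A gene was called at an adjusted p-value below 0.05, from the quasi-likelihood test of edgeR with the replicate number as a block and Benjamini-Hochberg adjustment over the 15673 genes.

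*Fosb* had the largest fitted fall of the 10 in both genotypes, with a log2 fold change of -3.62 (SE 0.70, adjusted p = 0.00171) in WT and -3.94 (SE 0.74, adjusted p = 0.0012) in KO. *Fos* fell by 1.89 (SE 0.43, adjusted p = 0.00411) on the log2 scale in WT and by 2.31 (SE 0.44, adjusted p = 0.00139) in KO. These 2 AP-1 partners of JUN fell, whereas *Jun* itself (ENSMUSG00000052684; chr4:95049034-95052222, minus strand) did not pass in either genotype. The log2 fold change of *Jun* was -0.13 (adjusted p = 0.735) in WT and 0.12 in KO, with SEs of 0.31 in both. *Jun* is overlapped by the exons of *Junos* on the other strand, which had at most 33 reads in a sample.

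*Egr1* (ENSMUSG00000038418; chr18:34859823-34864984, plus strand), a sensor of ERK signalling, had 149.5, 179.5 and 163.5 CPM in WT and 113.9, 72.0 and 64.1 CPM in KO at day 0. At day 3 it had 58.1, 27.1 and 21.3 CPM in WT and 24.6, 9.84 and 9.53 CPM in KO. Day 3 was below day 0 in every sample of the same genotype, and replicate 1 was again the highest at day 3. The log2 fold change over time was -2.39 (SE 0.28, adjusted p = 8.3e-05) in WT and -2.58 (SE 0.28, adjusted p = 4.2e-05) in KO.

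*Ier2* (chr8:84661331-84662852, minus strand) had 119.6, 123.5 and 166.6 CPM in WT and 133.4, 138.4 and 138.9 CPM in KO at day 0. It had 64.6, 55.7 and 45.9 CPM in WT and 62.2, 53.1 and 38.5 CPM in KO at day 3. The day 3 samples of both genotypes lay at similar levels, replicate by replicate. *Ier2* fell by 1.32 (SE 0.19, adjusted p = 0.000288) on the log2 scale in WT and by 1.43 (SE 0.19, adjusted p = 0.000139) in KO.

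*Klf6*, *Dusp1* and *Ier3* did not pass in either genotype, but each was called in some alternatives. *Klf6* (ENSMUSG00000000078; chr13:5861482-5870394, plus strand), a zinc finger factor, had a log2 fold change over time of -0.70 (adjusted p = 0.0551) in WT and -0.40 (adjusted p = 0.251) in KO. It was called lower in 9 of 24 settings in WT, among them DESeq2 (adjusted p = 0.0129), limma-voom (adjusted p = 0.0355) and RLE scaling (adjusted p = 0.042), and in 1 of 24 in KO. *Dusp1* (ENSMUSG00000024190; chr17:26505590-26562128, minus strand), the MAP kinase phosphatase, had -0.33 (adjusted p = 0.2996) in WT and 0.57 (adjusted p = 0.0811) in KO. Its exons overlap those of *Ergic1* on the other strand, which had up to 2776 reads in a sample, and whether the counting used strand is not given in the sources used here, so its level is uncertain. *Ier3* had 1.35 in WT and 1.47 in KO with SEs near 1 (0.96 in WT), and its adjusted p-values were 0.254 and 0.229. In *Ier3*, replicate 1 of day 3 lay below all day 0 samples of its genotype. A fit without the replicate 1 samples of day 3 was added after these values were seen. In it *Ier3* was called higher at day 3, which follows largely from leaving out its lowest samples. The log2 fold change was then 2.41 (adjusted p = 0.000106) in WT and 2.66 (adjusted p = 5.2e-05) in KO. *Dusp1* in KO was then called as well, at 0.90 (adjusted p = 0.00524). In all, *Ier3* was called higher in 3 of 24 settings in WT and 4 of 24 in KO, and *Dusp1* in 0 of 24 and 6 of 24. Each *Ier3* call came from a fit without replicate 1 of day 3 or with the block within each day. The block within each day removes the spread between replicate numbers from the error, so its comparisons of days cover only what remains. The SE of *Ier3* in WT was 0.23 in that fit. There *Ier3* was called higher in both genotypes (adjusted p = 0.0028 in WT and 0.00326 in KO). *Klf6* was then called lower in both (adjusted p = 0.000577 in WT and 0.0202 in KO), and *Dusp1* higher in KO alone (adjusted p = 0.0122). In that fit 67.0% of all tested genes were called in WT and 67.1% in KO.

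KO cells had less *Egr1*, *Atf3* and *Jun* RNA than WT cells at day 0, and none of the 10 genes was called higher. Thus 3 of the 10 were called, all lower, beside 20.4% of all tested genes called, 10.9% lower and 9.56% higher. The median log2 fold change of the 10 was -0.52, and that of all tested genes -0.01. *Egr1* averaged 164.2 ± 15.0 CPM in WT samples and 83.3 ± 26.8 CPM in KO samples (SD, n = 3). Its log2 fold change was -1.09 (SE 0.26, adjusted p = 0.0169). Its KO samples all lay below its WT samples, as did those of 17.4% of all tested genes. Without the replicate block *Egr1* was not called (adjusted p = 0.115).

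*Atf3* (ENSMUSG00000026628; chr1:191170296-191218039, minus strand), a stress-induced member of the family, had 22.2, 10.4 and 15.9 CPM in WT and 9.41, 7.0 and 6.33 CPM in KO at day 0. The groups did not overlap, and the log2 fold change was -1.08 (SE 0.31, adjusted p = 0.0351). *Jun* had 67.9, 28.7 and 66.9 CPM in WT and 36.4, 21.9 and 19.0 CPM in KO. WT replicate 2 lay within the KO range, although KO was below WT in each of the 3 pairs of the same number. Its log2 fold change was -1.05 (SE 0.31, adjusted p = 0.0399).

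These calls at day 0 rested on few samples. None of the 10 was called without WT replicate 3 of day 0, without KO replicate 2 or without KO replicate 3 of that day, when between 1717 and 1793 of all genes were called. Over all alternatives the adjusted p-value ranged from 0.000473 to 0.167 for *Egr1*, from 0.00165 to 0.226 for *Atf3* and from 0.00476 to 0.311 for *Jun*. Of the markers of other cell types, 2 of 6 mesendoderm and 2 of 4 neuroectoderm markers were called lower in KO at day 0. This stands beside 10.9% of all tested genes called lower. None of either list was called higher, although *Sox1* averaged 4.50 CPM in KO and 1.88 CPM in WT, and *Eomes* 55.8 and 51.3 CPM. *Nes*, the largest part of the neuroectoderm sum, averaged 36.7 CPM in KO and 112.1 CPM in WT. The mesendoderm markers summed to 70.16, 39.92 and 159.2 CPM in WT and 66.97, 51.26 and 54.45 CPM in KO, and the neuroectoderm markers to 99.54, 108.5 and 184.5 CPM in WT and 43.88, 42.22 and 54.55 CPM in KO. Both sums were highest in WT replicate 3. Their part in these differences was not tested.

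*Klf6* had 347.1, 143.2 and 260.0 CPM in WT and 241.6, 90.8 and 119.5 CPM in KO at day 0. KO was below WT in each numbered pair, replicate 2 was the lowest of both genotypes, and the groups overlapped. The log2 fold change of -0.74 (SE 0.28) had an adjusted p-value of 0.0882. With the replicate number as a block within each day *Klf6* was called too (adjusted p = 0.00137), which made 4 of the 10, beside 34.8% of all tested genes. *Fos*, *Fosb*, *Dusp1*, *Ier2*, *Ier3* and *Junb* were called in no setting tried at day 0. *Junb* had the only positive estimate among the 10, 0.45 (SE 0.28, adjusted p = 0.2861). *Ier2* was the closest to no difference, at -0.003 (adjusted p = 0.994), and its sign turned under other scalings.

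**Figure D2:**
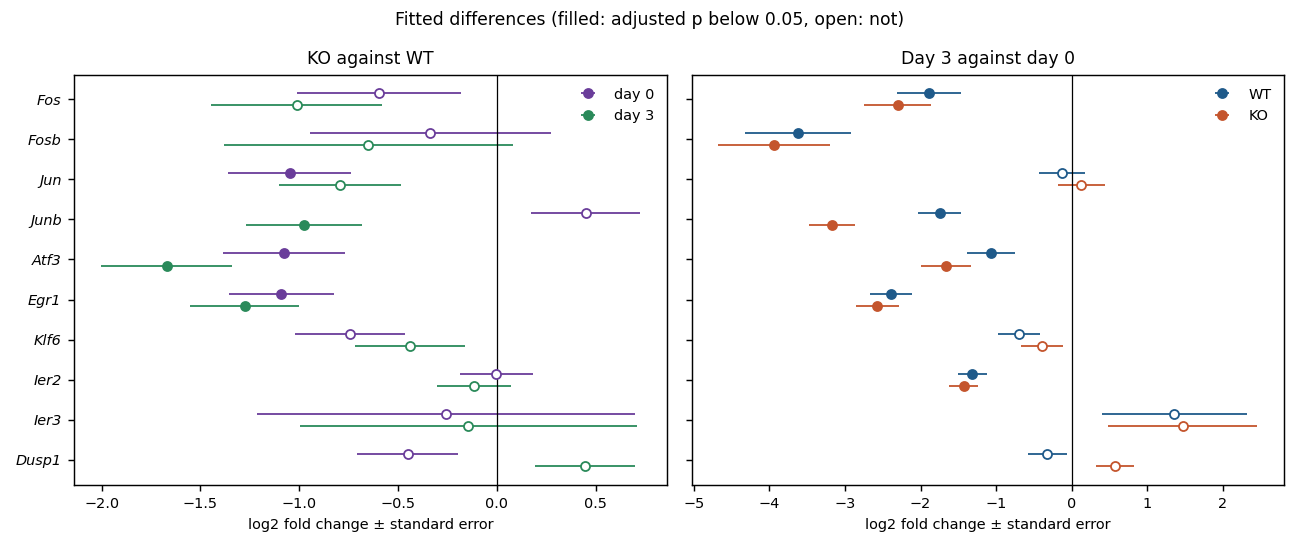
Fitted log2 fold changes with their standard errors, on the left KO against WT at day 0 (purple) and day 3 (green), and on the right day 3 against day 0 in WT (blue) and KO (orange). Filled points passed an adjusted p-value of 0.05. *Atf3* and *Egr1* are filled at both days on the left, and the 6 genes that fell are filled in both genotypes on the right.

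At day 3 *Atf3*, *Egr1* and *Junb* were lower in KO than in WT, and again none of the 10 was called higher. These 3 of 10 stand beside 30.9% of all tested genes called, 16.7% lower and 14.3% higher. The median log2 fold change of the 10 was -0.72, beside -0.002 over all tested genes. Markers of mesendoderm differed between the genotypes at this day as given above, and their part in these differences was not tested.

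*Atf3* had 5.46, 9.29 and 7.76 CPM in WT and 1.95, 2.16 and 3.00 CPM in KO. The groups did not overlap, and the log2 fold change was -1.67 (SE 0.33, adjusted p = 0.00467). This KO difference was called in 23 of 24 settings, the most among the 10, with adjusted p-values from 1.9e-05 to 0.0505, the last without the replicate 2 samples. *Egr1* averaged 35.5 ± 19.8 CPM in WT samples and 14.6 ± 8.58 CPM in KO samples (SD, n = 3), and its log2 fold change was -1.28 (SE 0.28, adjusted p = 0.00722). KO replicate 1 lay above WT replicate 3, so the groups overlapped, while KO was below WT in all 3 numbered pairs.

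*Junb* (ENSMUSG00000052837; chr8:84974484-84978718, minus strand) had 13.9, 22.2 and 21.7 CPM in WT and 7.10, 10.5 and 11.8 CPM in KO at day 3. The highest KO sample lay below the lowest WT sample. The log2 fold change was -0.97 (SE 0.29, adjusted p = 0.0305), and it was called in 16 of 24 settings with adjusted p-values from 0.00115 to 0.182. At day 0 *Junb* had 67.3, 56.8 and 69.9 CPM in WT and 121.3, 82.7 and 60.0 CPM in KO, where the genotypes overlapped. Exons of *Prdx2*, an abundant gene with up to 6737 reads in a sample, overlap *Junb* on the other strand, so the level of *Junb* is uncertain for the reason given for *Dusp1*.

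*Jun* had 34.9, 47.4 and 59.5 CPM in WT and 31.1, 26.0 and 25.9 CPM in KO at day 3, and *Klf6* had 125.8, 127.1 and 180.7 CPM in WT and 107.3, 102.6 and 108.9 CPM in KO. In both genes all KO samples lay below all WT samples, as in 23.0% of all tested genes. Their log2 fold changes were -0.79 (SE 0.31, adjusted p = 0.0762) for *Jun* and -0.44 (SE 0.28, adjusted p = 0.257) for *Klf6*. For *Fos* it was -1.01 (SE 0.43, adjusted p = 0.102). With the replicate number as a block within each day, *Fos* (adjusted p = 0.02), *Jun* (adjusted p = 0.0322) and *Klf6* (adjusted p = 0.0181) were called as well. That made 6 of the 10, all lower, beside 46.9% of all tested genes. Leaving out all replicate 2 samples left 0 of the 10 called and leaving out all replicate 3 samples left 1, when 13.6% and 14.0% of all genes were called.

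*Dusp1* had 35.0, 47.0 and 49.4 CPM in WT and 42.9, 59.8 and 77.0 CPM in KO at day 3, against 60.8, 41.5 and 62.0 CPM in WT and 48.1, 41.3 and 29.3 CPM in KO at day 0. KO was above WT in each of the 3 pairs at day 3 and below it in each at day 0. The log2 fold changes of 0.44 (adjusted p = 0.209) at day 3 and -0.45 (adjusted p = 0.247) at day 0 did not pass. The difference of the KO effect between the days was 0.90 (adjusted p = 0.121), which was called only with the block within each day (adjusted p = 0.0178, 2 of the 10 beside 31.2% of all tested genes) and without the replicate 1 samples of day 3 (adjusted p = 0.0367).

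The KO effect differed between the days in 1 of the 10 genes, *Junb*, beside 15.5% of all tested genes called and 7.34% with a difference of the same sign. The KO effect on *Junb* at day 3 minus that at day 0 was -1.42 on the log2 scale (SE 0.40, adjusted p = 0.0397). Over time *Junb* fell by 1.75 (SE 0.29) in WT and fell by 3.17 (SE 0.31) in KO on that scale, with adjusted p-values of 0.000628 and 1.8e-05. The call was held in 10 of 23 settings, with adjusted p-values from 0.0034 to 0.255. *Atf3* fell by 1.07 (SE 0.31, adjusted p = 0.0148) over time in WT and fell by 1.66 (SE 0.33, adjusted p = 0.00183) in KO, and no difference of its KO effect between the days was called in any setting. The *Atf3* fall in WT was called in 19 of 24 settings. It lost its call without WT replicate 1 of day 0 (adjusted p = 0.0674), without WT replicate 1 of day 3 (adjusted p = 0.0671), without all samples numbered 1 (adjusted p = 0.0932) or 3 (adjusted p = 0.0775), and with only the 6 WT samples (adjusted p = 0.053).

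Samples of WT and KO that shared a day and a replicate number deviated from their group means in the same direction in all 10 genes on balance, as they did in most other genes. The deviation is the log2(CPM + 1) of a sample minus its group mean. Over the 6 pairs of a WT and a KO sample, the correlation of deviations had a median of 0.644 over the 10 genes and of 0.618 over all tested genes, whose middle range ran from 0.247 to 0.829. The 6 pairs hold only 4 free values, since 3 deviations of a group sum to 0, and paired samples share their day and number. The correlation was highest for *Ier3* (0.982), *Fosb* (0.848), *Klf6* (0.836) and *Egr1* (0.762) and lowest for *Jun* (0.141). All 10 were above 0, as were 85.1% of all tested genes.

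**Figure D3:**
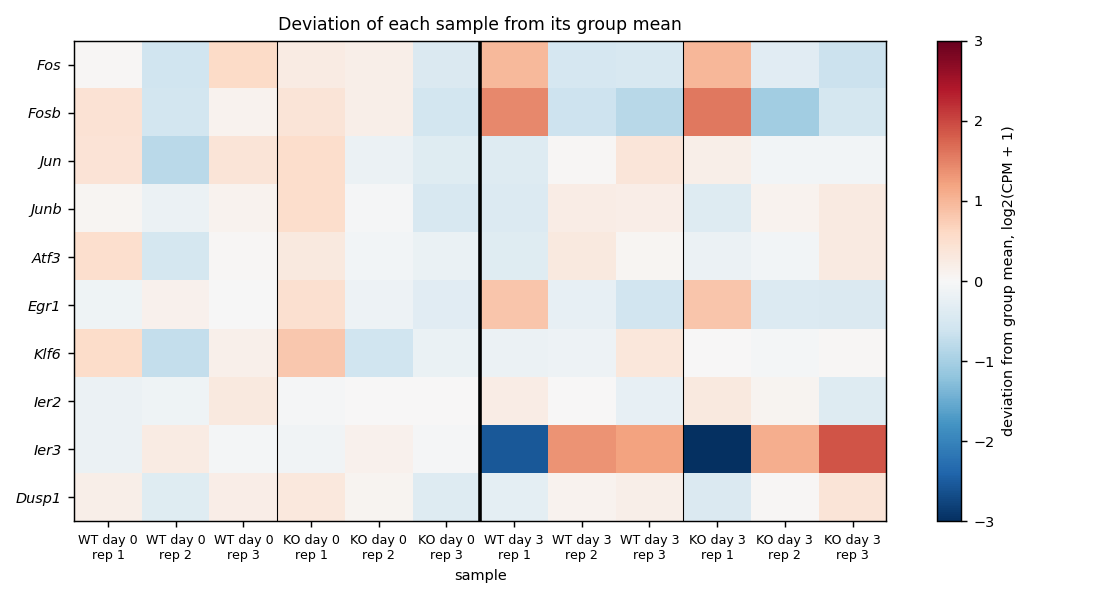
Deviation of each sample from its group mean in log2(CPM + 1) for the 10 genes (rows) and 12 samples (columns), with red above and blue below the mean. At day 3 replicate 1 is red for *Fos*, *Fosb* and *Egr1* and blue for *Ier3* in WT and in KO alike, whereas at day 0 replicate 3 of WT and of KO tend to opposite colours.

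The shared variation was concentrated in replicate 1 at day 3. There *Fos* was 2.98-fold and *Fosb* 8.13-fold above the mean of replicates 2 and 3 in WT, and 3.2-fold and 16.6-fold above it in KO. *Egr1* was 2.4-fold above in WT and 2.53-fold above in KO. *Ier3* (ENSMUSG00000003541; chr17:35821684-35822923, plus strand) ran the other way. It had 2.19, 46.4 and 42.6 CPM in WT and 0.90, 30.7 and 54.6 CPM in KO at day 3, so that replicates 2 and 3 averaged 20.3-fold above replicate 1 in WT and 47.4-fold above it in KO. At day 0 *Ier3* was even across all 6 samples, with 6.55, 9.13 and 7.24 CPM in WT and 5.83, 7.0 and 6.18 CPM in KO. In the WT sample of replicate 1 at day 3 *Ier3* had 47 reads, against 963 and 894 in the others, and in the KO sample it had 18, against 540 and 1312.

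Replicate 1 at day 3 was the highest of the 3 in both genotypes for 4 of the 10 genes (*Fos*, *Fosb*, *Egr1* and *Ier2*). It was the lowest in both for another 4 (*Junb*, *Ier3*, *Dusp1* and *Atf3*). These 8 of 10 stand beside 47.5% of all tested genes. The corresponding count was 6 of 10 for replicate 1 at day 0, beside 47.9%. At day 0 the highest number was shared by WT and KO in 6 genes and the lowest in 3, beside 55.1% and 55.5% of all tested genes. At day 3 the highest number was shared in 6 genes, beside 56.3%. At day 0 WT replicate 2 was the lowest in 7 of the 10, while KO replicate 3 was the lowest in the same 7 but for *Klf6*, and in *Egr1*. Fibroblast markers summed to 82.1, 251.8 and 126.6 CPM in WT and 121.8, 334.4 and 207.9 CPM in KO at day 0, highest in replicate 2 of both genotypes. Their part in the variation of the 10 genes was not tested.

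**Figure D4:**
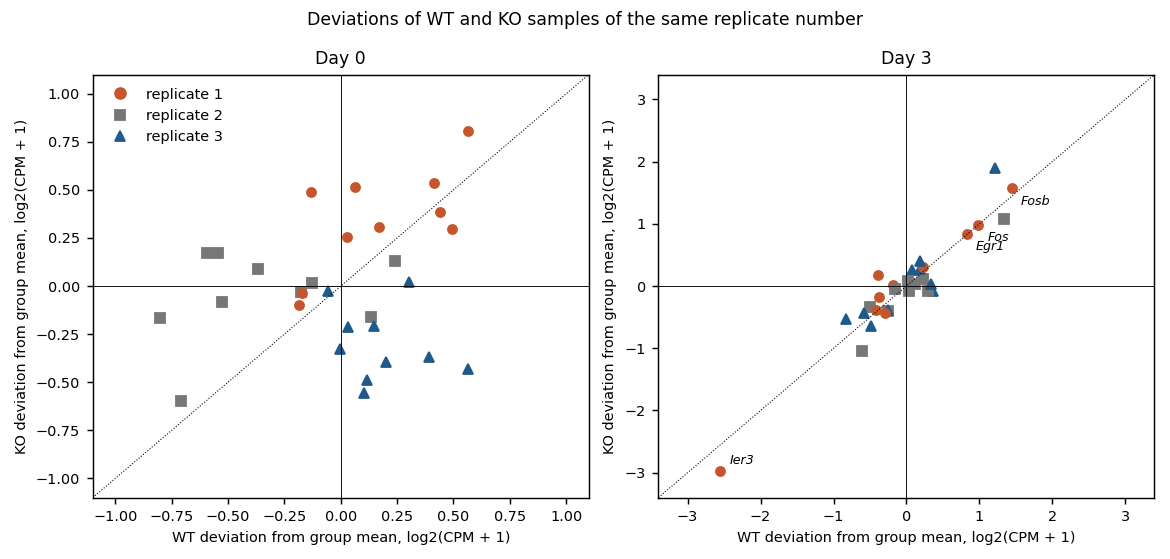
Deviation of the KO sample (vertical) against that of the WT sample of the same replicate number (horizontal), both in log2(CPM + 1) from the group mean, for the 10 genes at day 0 (left) and day 3 (right, wider axes). Colour and shape give the number and the dotted line marks equal deviations. *Fos*, *Fosb* and *Egr1* of replicate 1 lie at the upper right and *Ier3* at the lower left at day 3, while day 0 points of replicates 2 and 3 lie mostly off the line.

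The test of the replicate number within day, which asks gene by gene whether WT and KO samples of a number shift together, called 6 of the 10 genes beside 24.2% of all tested genes. Those were *Ier3* (adjusted p = 0.000302), *Klf6* (adjusted p = 0.0043), *Fosb* (adjusted p = 0.00574), *Egr1* (adjusted p = 0.0104), *Ier2* (adjusted p = 0.0243) and *Fos* (adjusted p = 0.031). *Atf3*, *Junb*, *Dusp1* and *Jun* had adjusted p-values from 0.0776 to 0.172. Without the 2 replicate 1 samples of day 3 only *Klf6* of the 10 was called (adjusted p = 0.00825), beside 9.96% of all genes. Without all 4 samples numbered 1 none of the 10 was called in edgeR's test, but then only 0.0774% of all genes were. The median correlation of deviations was -0.702 over the 10 genes without the samples numbered 1, against 0.522 over all tested genes. It was -0.0255 without only the day 3 samples numbered 1, against 0.579. The median over the 10 genes was therefore positive only with the replicate 1 samples of day 3 included, among the settings tried.

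The 10 genes did not vary as 1 block. Over the 12 samples, the deviations of *Fos* and *Fosb* correlated at 0.92. The deviation of a member correlated with the mean of the other 9 at 0.844 for *Jun* and 0.726 for *Klf6*, but at 0.0536 for *Egr1*, -0.0464 for *Ier2* and -0.31 for *Ier3*. These are descriptions over samples that share day, number and library. The mean of the members, each scaled to unit SD, lay between -0.90 and 0.85 at day 0. At day 3 members deviated in opposite directions, and their mean lay only between -0.16 and 0.18. Likeness to this mean therefore describes mainly day 0, and not each member. The 10 genes outside the class whose deviations were most like the mean of the members were *Marcks*, *Marveld3*, *H2-Q4*, *Mtch1*, *Ccdc50*, *Trim56*, *Prkacb*, *Prkra*, *Clic4* and *Repin1*, with correlations from 0.958 to 0.919. *Marcks*, which encodes a substrate of protein kinase C at the plasma membrane, had 90.8, 63.7 and 86.2 CPM in WT and 73.8, 47.4 and 43.2 CPM in KO at day 0. At day 3 its 6 values lay between 193.5 and 206.1 CPM, so its samples differed mainly at day 0.

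Of another 29 immediate early genes, 16 fell and 1 rose over time in WT, and 15 fell and 2 rose in KO. The 17 called in each genotype stand beside 56.2% and 56.6% of all tested genes. Their median log2 fold changes were -0.89 in WT and -0.997 in KO. The largest falls in WT were those of *Klf2* at -3.98 (SE 0.19), *Fosl1* at -3.59 (SE 0.45), *Npas4* at -3.50 (SE 0.60) and *Egr4* at -3.26 (SE 0.44). *Fosl1* encodes an AP-1 partner of JUN, and *Klf2* a zinc finger factor of the naive ESC state. In KO the largest were those of *Klf2* at -3.75 (SE 0.19), *Fosl1* at -3.39 (SE 0.47), *Egr2* at -3.04 (SE 0.44) and *Arc* at -2.89 (SE 0.26). The replicate number within day was called in 18 of these 29, beside 24.2% of all tested genes.

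At day 0, 6 of the 29 were lower and 2 higher in KO, beside 20.4% of all tested genes called. *Egr3* had 3.00, 0.84 and 8.45 CPM in WT and 0.62, 0.55 and 0.61 CPM in KO, a log2 fold change of -2.51 (SE 0.67, adjusted p = 0.0262). *Npas4* was at -2.38 (SE 0.56, adjusted p = 0.0146), *Egr4* at -1.95 (SE 0.40, adjusted p = 0.00793) and *Dusp2* at -1.91 (SE 0.47, adjusted p = 0.0177). At day 3, 7 of the 29 were lower and 3 higher, beside 30.9%. *Egr2* had 1.54, 1.49 and 2.43 CPM in WT and 0.40, 0.23 and 0.29 CPM in KO, a log2 fold change of -2.56 (SE 0.44, adjusted p = 0.00226). *Egr3* was at -3.19 (SE 0.87, adjusted p = 0.0198), *Nr4a3* at -1.81 (SE 0.54, adjusted p = 0.0297) and *Nr4a2* at -1.56 (SE 0.50, adjusted p = 0.039). The KO values of *Egr2* and *Egr3* at day 3 stand for a handful of reads each. The median over the 29 was -0.22 at day 0 and 0.03 at day 3, beside -0.01 and -0.002 over all tested genes. The KO effect differed between the days in 5 of the 29, beside 15.5% of all tested genes. Among the 5 were *Nr4a2* (-2.58, SE 0.67) and *Nr4a1* (-1.05, SE 0.23), which encode orphan nuclear receptors, and *Ier5* (1.29, SE 0.37) and *Zfp36l1* (-1.09, SE 0.22). *Nr4a1* averaged 127.5 CPM in KO and 51.0 CPM in WT at day 0, and 33.9 and 27.7 CPM at day 3. Its negative value thus stands for a smaller excess in KO. *Arc* also averaged higher in KO, at 136.4 CPM against 54.9 CPM in WT at day 0 and 18.2 against 6.63 CPM at day 3.

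Of *Srf*, its partners and CREB factors (9 genes), 2 were higher and none lower in KO at each day. At day 0 these were *Elk3*, a ternary complex factor, at 1.28 (SE 0.28) and *Atf1*, a CREB relative, at 0.31 (SE 0.08). At day 3 they were *Atf1* at 0.56 (SE 0.08) and *Elk4* at 0.34 (SE 0.10). Of all tested genes, 20.4% were called at day 0 and 30.9% at day 3. *Srf* itself fell over time by 1.17 (SE 0.11) in WT and by 1.18 (SE 0.11) in KO, and *Creb1* rose by 1.02 (SE 0.12) and 1.12 (SE 0.12). In the 9 genes 1 rose and 2 fell in WT over time, and 1 rose and 5 fell in KO. The shares of all tested genes called over time were 56.2% in WT and 56.6% in KO. *Elk3* alone of the 9 had a KO effect that differed between the days (-2.06, SE 0.40), beside 15.5% of all tested genes.

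Of 11 ERK pathway kinases and feedback genes, 3 were higher and 2 lower in KO at day 0, and 2 were higher at day 3. These counts stand beside 20.4% of all tested genes called at day 0 and 30.9% at day 3. *Dusp4*, a nuclear phosphatase for ERK, was at -1.57 (SE 0.29), *Etv4* at 1.17 (SE 0.19), *Spry2* at 0.90 (SE 0.24) and *Spred1* at 0.60 (SE 0.12) at day 0. *Etv5* was at 0.67 (SE 0.11) at day 3. Over time 3 rose and 3 fell in WT, and 3 rose and 5 fell in KO, beside 56.2% and 56.6% of all tested genes called. *Spry4* fell by 1.93 (SE 0.36) in WT and 2.17 (SE 0.37) in KO, and *Dusp4* rose by 1.49 (SE 0.28) and 2.81 (SE 0.30). The KO effect differed between days in 4 of the 11, beside 15.5% of all tested genes.

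Of 9 heat shock genes, 1 was higher in KO at day 0, *Hspb1* at 1.64 (SE 0.09), and 2 were higher and 3 lower at day 3. There *Hspa1b* was at -1.72 (SE 0.31), *Hspa1a* at -1.52 (SE 0.33), *Hspb1* at 0.96 (SE 0.10) and *Dnajb1* at -0.45 (SE 0.12). Of all tested genes, 20.4% were called at day 0 and 30.9% at day 3. *Hspa1a* and *Hspa1b* are near-identical copies that could lose or share reads, so their values are uncertain. Over time 5 of the 9 fell in WT and 7 fell in KO, and none was called higher, beside 56.2% and 56.6% of all tested genes called. The list of ATF4 target genes, which report on amino acid and ER stress, held 8 genes with *Atf4* itself among them. *Atf4* alone of these was higher in KO, at 0.41 (SE 0.10) at day 0 and 0.31 (SE 0.10) at day 3. Over time 5 of the 8 fell in WT, and 5 fell and 1 rose in KO, beside the same shares of all tested genes. The replicate number within day was called in 7 of these 8 genes and in 6 of the 9 heat shock genes, beside 24.2% of all tested genes.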

How the data were processed

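Polyadenylated RNA of 12 samples (4 groups of 3) was sequenced with single reads from stranded libraries. The authors trimmed reads with Cutadapt (v. 1.3), aligned them to GRCm38 with STAR (v. 2.4.2a) and summarised reads over genes with htseq-count (v. 0.6.1) and Ensembl annotation. The strand setting of the counting is not given in the sources used here. The deposited values are raw read counts per gene, without normalization. Reads that align to several places (36.5% to 44.1% of a sample) and other unassigned reads are 5 separate rows of each file and were left out of library sizes and tests.

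Gene symbols and exon lengths came from GENCODE M21, which matched 46005 of 46517 genes. A gene entered the test if any sample exceeded 1 CPM. The test was that of edgeR 4.0.16 in R 4.3.3 (quasi-likelihood F-test, TMM normalization, all 12 samples in 1 fit, 4 groups and the replicate number as an additive block over both days; the study's methods name a batch term but not what the batch was). Benjamini-Hochberg adjustment was over all 15673 genes, and genes were called at an adjusted p-value below 0.05. Standard errors were derived from the log2 fold change and the F statistic. Deviations used log2(CPM + 1), with a pseudocount of 1. Scripts were tested on simulated data.

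Replicate numbers were taken from the labels. Deviations of WT and KO samples that shared a day and number correlated in each of the 6 pairs (0.289 to 0.692, mean 0.519), whereas those of the same number on different days did not (mean -0.048). The numbers thus paired samples within a day but not across days. The reported fit kept 1 shift per number over both days, which these correlations did not bear out. The fit with the block within each day is given where it changed a call. None of the 12 pairs of libraries within a group agreed within sampling noise.

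The 10 genes and the gene lists were chosen with earlier results of these data known. All 10 were given, with at most 4 genes of a list for each comparison (those with the largest fold change among those that passed) and the 10 most alike genes by correlation, except 1 gene of a list that is not reported here. Alternatives were DESeq2 1.42.0, limma-voom (limma 3.58.1), RLE scaling, other filters (none, or at least 10 counts in every sample), a pseudocount of 0.1, no block, a block within each day, the samples of 1 day or genotype alone, and samples left out in turn. Leaving out the replicate 1 samples of day 3 and the likeness to *Ier3* alone were added after seeing the data.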

Additional observations from a re-analysis of the deposited data

Results flagged for a closer look

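*Junb* was singled out because its KO effect differed between the days by the test of the difference itself. Its effect at day 3 minus that at day 0 was -1.42 on the log2 scale (SE 0.40, adjusted p = 0.0397 in edgeR's quasi-likelihood test). The KO effect was 0.45 at day 0 (adjusted p = 0.2861) and -0.97 at day 3 (adjusted p = 0.0305). KO was below WT in 1 of 3 numbered pairs at day 0 and in 3 of 3 at day 3. Over the alternatives the adjusted p-value of the difference ran from 0.0034 to 0.255. Of all tested genes, 15.5% had such a difference, and *Prdx2* overlaps *Junb* on the other strand.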

How the results depend on the processing

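Over time, the genes called in either direction numbered 5 to 7 of 10 in WT and 6 to 8 in KO when samples were left out. In all other settings these counts stayed within 1.5 times those reported. Without KO replicate 1 of day 3, the genes gained in KO were *Ier3* (2.29) and *Dusp1* (0.81), both higher at day 3. The KO counts were less steady. At day 0 they ran from 0 to 4 over the fits that left out samples. At day 3 they ran from 0 to 4, against 3 as reported. With the replicate block within each day 6 were called at day 3 (46.9% of all genes), without a filter on low counts 5 (16.1%), with DESeq2 5 (34.0%), and with only the 6 samples of that day 7 (46.3%), of which *Dusp1* alone was higher. The difference between days was called in 2 genes with the block within each day (31.2% of all genes), in 0 with limma-voom (15.9%), in 2 without both replicate 1 samples of day 3 (18.5%), and in 0 to 1 when samples were left out. The replicate number within day was called in 10 genes with no filter on low counts (21.8%), in 1 without both replicate 1 samples of day 3 (9.96%), and in 0 to 9 when a number was left out. The median correlation of deviations ran from -0.702 (without replicate 1) to 0.939 (without replicate 3), and was -0.0255 without the replicate 1 samples of day 3. The cause of these changes was not tested, beyond the fewer samples in a fit that leaves some out.

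Without the replicate block 2 genes were called lower in KO at day 0, because *Egr1* lost its call (adjusted p = 0.115), and 3 at day 3. The block within each day removes the spread between numbers from the error, so comparisons of days in that fit cover only what remains. A fit that leaves an arm with 2 samples borrows the spread of the other groups.

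Signs turned in genes near no difference. *Ier2* at day 0 was -0.003 as reported, but 0.0034 without the replicate block, 0.0187 with the block within each day, 0.00797 with RLE scaling, 0.0078 with DESeq2, 0.022 with limma-voom and 0.0187 with only the samples of that day. *Ier3* in the difference between days was -0.00089 with the block within each day. *Jun* over time in WT was 0.2 without the replicate 1 samples of day 3. With samples left out, signs also turned at day 0 for *Fos* (-1.07 to 0.10), *Fosb* (-1.04 to 0.29), *Ier2* (-0.17 to 0.28) and *Ier3* (-1.45 to 0.84). At day 3 they turned for *Fosb* (-2.28 to 0.27), *Ier2* (-0.28 to 0.10) and *Ier3* (-1.07 to 0.41). Over time they turned for *Jun* in WT (-0.50 to 0.21) and for *Jun* (-0.14 to 0.39) and *Klf6* (-0.70 to 0.028) in KO. In the difference between days they turned for *Fos* (-1.13 to 0.0037), *Fosb* (-1.95 to 0.61), *Egr1* (-0.49 to 0.17), *Ier2* (-0.40 to 0.095), *Ier3* (-1.01 to 1.27) and *Jun* (-0.063 to 0.57). None of these values had passed the test in the reported fit. Over all single-gene values and settings, 1075 kept direction and side of the threshold, 69 lost a call, 57 gained one and 53 turned sign. At this depth *Fosb* in KO at day 3 rests on 2, 14 and 116 reads.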

Other observations

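The likeness of other genes to *Ier3* was looked at after the values were seen, and no class of genes was tested among them. The 10 genes whose deviations were most like those of *Ier3* over the 12 samples were *Per1*, *Adm*, *Ppp1r3c*, *Kdm5c*, *Ciart*, *Dlc1*, *Ppp1r3g*, *Kdm3a*, *Gdap10* and *Cyfip1*, with correlations from 0.972 to 0.958. Values are given for 5 of them, picked after their values were seen. *Adm*, which encodes the peptide adrenomedullin and is known as a target of hypoxia-inducible factors, had 0.70, 29.6 and 22.5 CPM in WT and 0.25, 17.1 and 26.9 CPM in KO at day 3. At day 0 it lay between 0.83 and 3.22 CPM in all 6 samples. *Kdm3a*, a histone demethylase gene that low oxygen also induces, had 123.3, 262.8 and 229.1 CPM in WT and 120.4, 279.9 and 243.6 CPM in KO at day 3. Unlike *Adm*, it was higher at day 0, between 329.9 and 487.5 CPM, than in any day 3 sample. *Ppp1r3c*, which encodes a subunit that directs a phosphatase to glycogen, had 2.01, 23.2 and 36.2 CPM in WT and 0.50, 9.72 and 29.8 CPM in KO. In each of these genes replicate 1 was the lowest of the 3 at day 3 in both genotypes. This follows largely from their choice by likeness to *Ier3*, so it is not a separate observation.

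In the clock genes *Per1* and *Ciart*, chosen by the same likeness, replicate 1 was also the lowest at day 3 in both genotypes. *Per1* had 24.9, 87.4 and 60.4 CPM in WT and 27.3, 74.8 and 96.5 CPM in KO at day 3, and *Ciart* had 3.64, 16.7 and 22.9 CPM in WT and 7.20, 22.3 and 39.0 CPM in KO. *Ddit4*, a stress-induced inhibitor of mTOR signalling from the list of ATF4 target genes, had 80.0, 590.4 and 486.4 CPM in WT and 47.7, 449.6 and 685.1 CPM in KO. It was called in the test of the replicate number within day (adjusted p = 0.00168, edgeR). These correlations describe 12 samples that share days, numbers and libraries, and the differences between numbers at day 3 were not tested gene by gene apart from that test.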
